A study of Homo sapiens with 4 samples.

Results

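The cytochrome P450 genes were taken as every gene whose symbol is CYP followed by a family number, a subfamily letter and a gene number, with pseudogenes and antisense RNAs kept and CYP51A1, which belongs to cholesterol synthesis, left out. The rule found 111 of the 63856 genes in the count table, of which 55 are genes, 51 are pseudogenes, fragments or readthrough symbols and 5 are antisense or divergent RNAs. RNA-seq was made from MCF10A, a non-tumorigenic human mammary epithelial line, with 2 libraries of wild type cells (WT) and 2 of cells that carry a human HSF1 cDNA in the pLVX lentiviral vector after puromycin selection (HSF1-pLVX). The MCF10A medium held horse serum, EGF, insulin and hydrocortisone, a glucocorticoid. No RNA-seq library of empty-vector cells was analysed here, and effects of the vector, the selection and the separate culture cannot be told apart from those of HSF1. The methods call the replicates biological, but neither the methods nor the labels say that they came from separate cultures. The p-values then measure the spread between these libraries.

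P450 enzymes are heme proteins that insert 1 oxygen atom into lipids, hormones, vitamins or drugs. Those in the endoplasmic reticulum take electrons from the reductase POR, and those in mitochondria take them from the ferredoxin FDX1 and its reductase FDXR. Families CYP1 to CYP3 are best known for drug and toxin oxidation in the liver, CYP4 for fatty acids and eicosanoids, and CYP24, CYP26 and CYP27 for vitamin D, retinoic acid and sterols. Breast epithelium is known to use several of them outside the liver, CYP1B1, CYP24A1 and CYP27B1 among them.

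The CYP4F subfamily holds both enzymes and many pseudogenes that are close copies, so reads can be hard to assign. A stretch of 100 exonic bases is shown because it was the one of CYP4F29P, a pseudogene, that matched the other tested CYP4F members best. Capitals mark bases that differ from CYP4F29P. The sequences are those of hg38, each read in the sense of its gene.
CYP4F29P, chr21:13847614-13847713, minus strand: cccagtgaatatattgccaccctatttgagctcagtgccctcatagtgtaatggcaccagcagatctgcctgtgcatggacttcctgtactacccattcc
CYP4F26P, chr9:33603289-33603388, plus strand: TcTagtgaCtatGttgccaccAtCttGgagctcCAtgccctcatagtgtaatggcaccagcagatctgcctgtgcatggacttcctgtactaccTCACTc
CYP4F33P, chr9:38542473-38542572, minus strand: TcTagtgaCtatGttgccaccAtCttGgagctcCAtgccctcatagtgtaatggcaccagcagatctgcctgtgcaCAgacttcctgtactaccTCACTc
CYP4F12, chr19:15683497-15683596, plus strand: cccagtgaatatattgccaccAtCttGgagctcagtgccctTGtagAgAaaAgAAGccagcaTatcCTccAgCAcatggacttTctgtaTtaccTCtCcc
CYP4F3, chr19:15649917-15650016, plus strand: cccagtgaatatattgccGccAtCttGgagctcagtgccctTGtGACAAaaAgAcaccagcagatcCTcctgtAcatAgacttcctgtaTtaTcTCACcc
CYP4F23P, chr19:15576569-15576668, plus strand: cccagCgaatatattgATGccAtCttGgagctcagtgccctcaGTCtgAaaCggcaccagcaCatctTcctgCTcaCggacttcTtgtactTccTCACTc
CYP4F2, chr19:15889590-15889689, minus strand: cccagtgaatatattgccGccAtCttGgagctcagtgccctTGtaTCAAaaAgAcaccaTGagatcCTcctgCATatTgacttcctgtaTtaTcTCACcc
CYP4F11, chr19:15923979-15924078, minus strand: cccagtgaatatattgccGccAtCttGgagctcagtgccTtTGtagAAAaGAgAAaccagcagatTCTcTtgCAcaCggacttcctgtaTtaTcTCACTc

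Copy by copy, CYP4F26P matched CYP4F29P at 86% of the 100 positions and CYP4F33P at 84%, whereas the enzyme genes matched at 72 to 78%. Over all exons, 33.1% of the 76-base windows of CYP4F29P, the length of 1 sequenced read, recurred exactly elsewhere in hg38, on chromosomes 13 and 18, where the pseudogenes CYP4F34P and CYP4F35P lie. The share was 8.9% for CYP4F2, 7.9% for CYP4F26P, 6.1% for CYP4F3 and CYP4F33P, 2.3% for CYP4F12 and 0% for CYP4F11 and CYP4F23P. Of the 32 tested P450 members, 20 had no window that recurs, which leaves reads with mismatches aside.

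HSF1 itself held 3762 and 3515 counts in the WT libraries and 24664 and 19839 in the HSF1-pLVX libraries, a log2 fold change of 2.35 ± 0.0999 (SE, edgeR adjusted p = 1.14e-10). The counts do not separate the introduced transcript from the endogenous one. Library totals were between 18688109 and 24184285 counts. Levels are given as CPM, counts scaled to a common library size after TMM normalization, and changes as log2 fold changes of HSF1-pLVX over WT with their standard errors (SE), from edgeR's quasi-likelihood test and its Benjamini-Hochberg adjusted p-values over 15830 tested genes. Breast epithelial markers were present in both variants and summed to 12930 to 12960 CPM in WT and 7135 to 7679 in HSF1-pLVX libraries, with 3 of 8 higher and 5 lower. KRT5 rose by a log2 fold change of 1.12, while KRT14 fell by 3.55 and EPCAM fell by 1.36 on the log2 scale. In bulk RNA, fewer cells of a type and less RNA per cell cannot be told apart.

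Of the 111 members, 39 had 0 counts in every library, 40 had counts below the filter and 32 were tested. Among the 32, 13 were higher in HSF1-pLVX cells, 8 were lower and 11 were not called at an adjusted p of 0.05. The higher share, 40.6%, compares with 32.7% of all tested genes, and the lower share, 25%, with 33.2%, and calls in either direction, 65.6%, were about as common as over all genes, 65.9%. At least 2-fold higher were 10 members (31.2%, against 14.9% of all tested genes), and at least 2-fold lower were 5 (15.6%, against 14.0%). The groups did not overlap in 26 of 32 tested members, against 83.1% of all tested genes. Of the tested members, 4 passed the filter through 1 group only, with both libraries of the other group below it. These were CYP3A5, CYP4F2, CYP4F29P and CYP7B1, and 3 of them were called. CYP2J2 and CYP4F33P, both called, had 1 library of their lower group below the filter. The median log2 fold change was 0.22 over the 32 members and 0.02 over all tested genes. The median size of the change, without its sign, was 0.98 against 0.58.

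The summed level of all 111 members was 207.1 and 210.0 CPM in the WT libraries and 204.1 and 205.8 CPM in the HSF1-pLVX libraries. The total over all members was thus nearly level while its makeup differed. CYP4B1 alone gave 27.2 to 27.3% of it in WT cells and 3.13 to 3.65% in HSF1-pLVX cells. The 55 members that are genes summed to less in HSF1-pLVX libraries, 172.4 and 168.7 CPM, than in WT libraries, 197.6 and 200.7 CPM. Pseudogenes, fragments and readthrough symbols gave 7.43 to 7.57 CPM in WT and 29.9 to 35.2 CPM in HSF1-pLVX libraries, most of the excess from CYP4F29P.

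**Figure D1:**
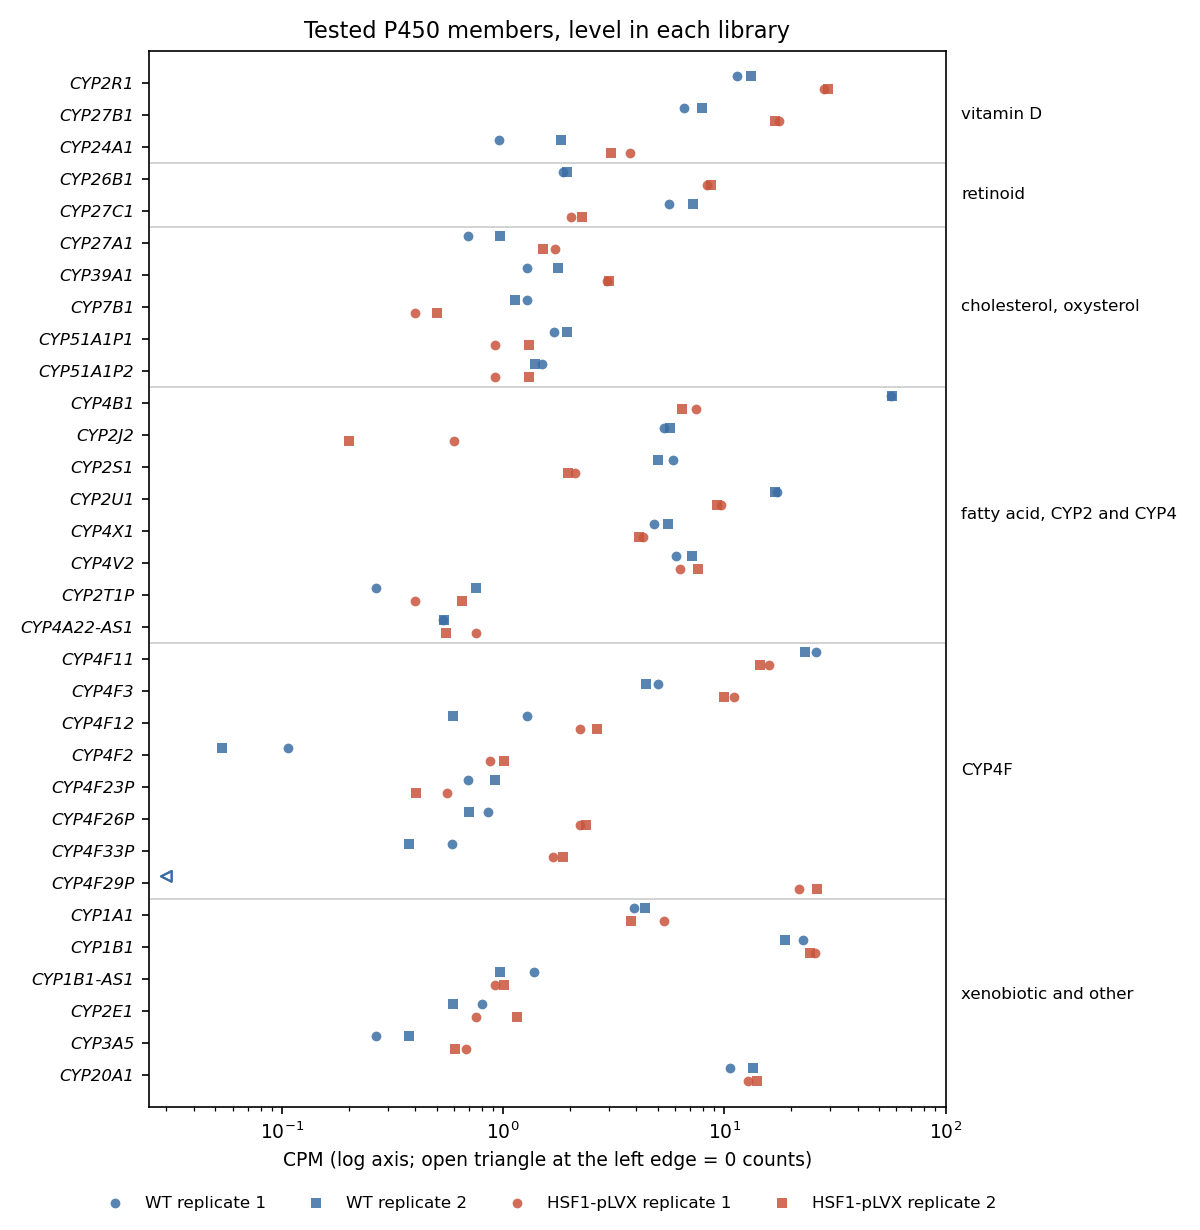
Level of each of the 32 tested P450 members in each library, in CPM on a log axis, grouped by the substrate the enzymes are known for; circles are replicate 1, squares replicate 2, blue WT and red HSF1-pLVX, and the open triangle stands for 0 counts. CYP4B1 is the highest member in WT at 56.6 and 57.2 CPM, and CYP4F29P goes from 0 counts to 21.8 and 26.3 CPM.

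**Figure D2:**
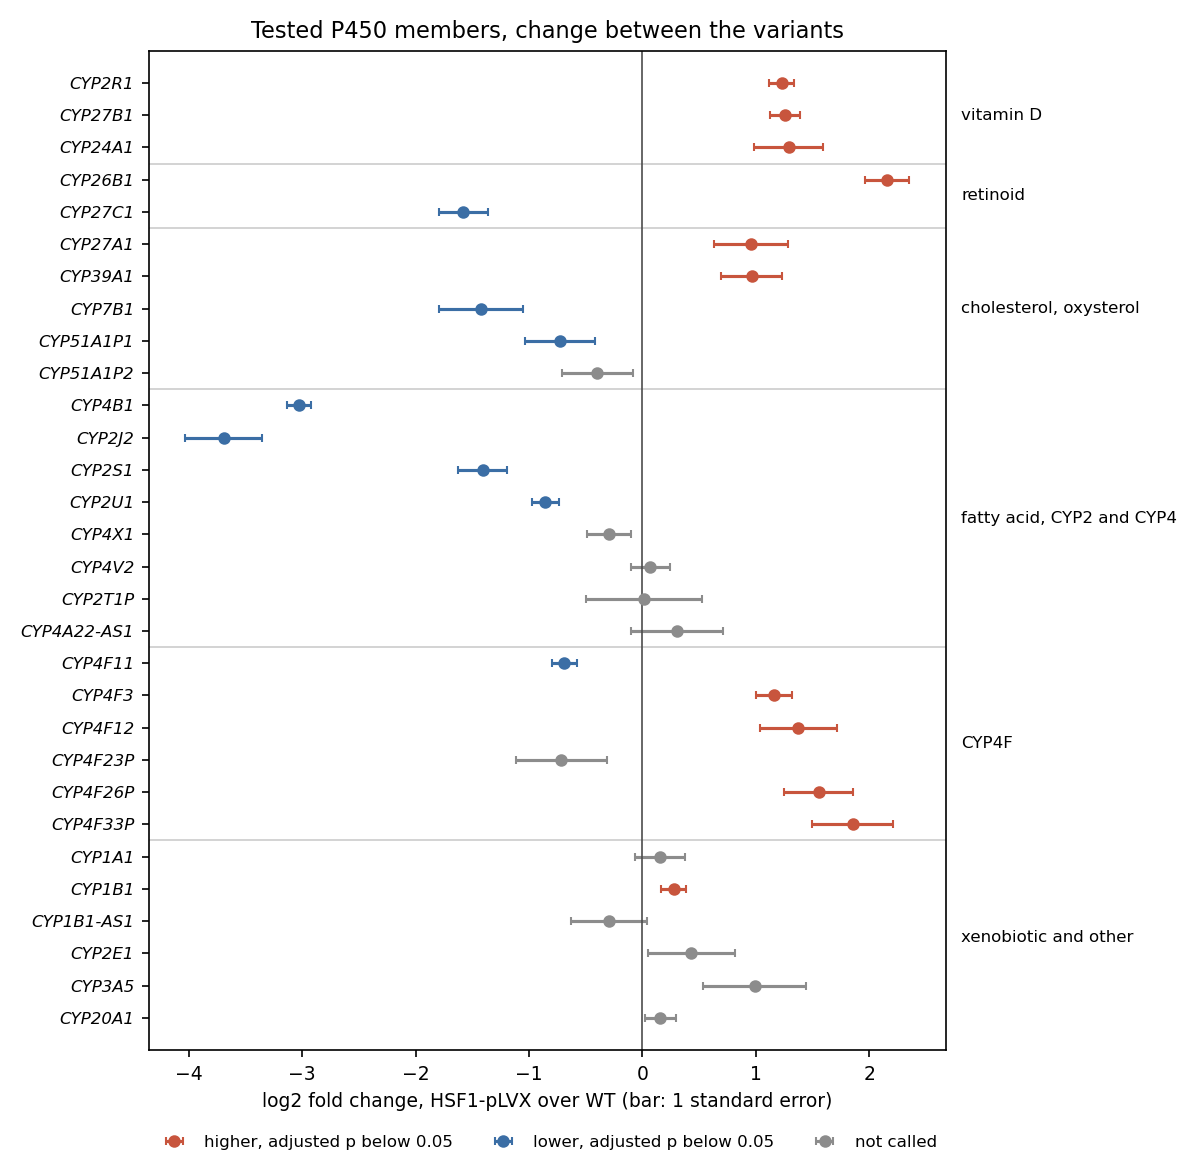
Log2 fold change of HSF1-pLVX over WT for 30 tested members with bars of 1 standard error, red for called higher, blue for called lower and grey for not called; CYP4F29P and CYP4F2, with at most 2 counts in any WT library, are left out because their fitted values are not measured folds. The vitamin D enzymes lie together between 1.23 and 1.29, and CYP4B1 and CYP2J2 lie lowest at -3.03 and -3.69.

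The P450 enzymes of vitamin D were all higher in HSF1-pLVX cells, those that make the hormone and the one that clears it alike. Over all tested genes, 32.7% were higher. CYP2R1 (ENSG00000186104.10, chromosome 11, 14877440 to 14892252), the main enzyme for the first hydroxylation of vitamin D, had 11.4 and 13.2 CPM in WT and 28.2 and 29.4 CPM in HSF1-pLVX libraries. Its log2 fold change was 1.23 ± 0.112 (SE, edgeR adjusted p = 2.48e-07). CYP27B1 (chromosome 12, 57762334 to 57768986), which makes the active hormone calcitriol, had 6.55 and 7.91 CPM in WT and 17.65 and 17.01 CPM in HSF1-pLVX libraries. It rose by a log2 fold change of 1.26 ± 0.134 (SE, edgeR adjusted p = 1.23e-06). CYP24A1 (chromosome 20, 54153449 to 54173973), which inactivates calcitriol, held 18 and 34 counts in WT and 94 and 61 in HSF1-pLVX libraries. Its groups did not overlap, although the WT libraries lay apart at 0.959 and 1.83 CPM, and its log2 fold change was 1.29 ± 0.304 (SE, edgeR adjusted p = 1.80e-03). Without HSF1-pLVX replicate 2 the CYP24A1 call was lost (edgeR adjusted p = 0.0518).

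Other genes of the pathway did not all move the same way. Of 9 listed vitamin D genes outside the P450 symbols, 4 were tested. Of these 1 was higher and 3 were lower, against 32.7% and 33.2% of all tested genes. VDR, the receptor of calcitriol, went from 94.8 ± 1.74 CPM in WT to 78.9 ± 2.27 CPM in HSF1-pLVX cells (n = 2 each, SD), a log2 fold change of -0.27 (edgeR adjusted p = 1.11e-02). The VDR call was lost without HSF1-pLVX replicate 1, HSF1-pLVX replicate 2 or WT replicate 1 (edgeR adjusted p = 0.0900, 0.0736 and 0.0611). DHCR7, which uses up the skin precursor of vitamin D in cholesterol synthesis, fell by 0.82 on the log2 scale. CD14, a surface receptor of innate immunity that vitamin D is known to induce, rose by a log2 fold change of 6.36, from 22 and 10 counts in WT to 1470 and 1652 in HSF1-pLVX libraries, and by 7.04 without WT replicate 1. FDX1, which feeds electrons to CYP24A1 and CYP27B1, rose by 1.06 from 29.5 ± 0.441 CPM to 61.7 ± 2.52 CPM (n = 2 each, SD).

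The promoter of CYP2R1 is shown because CYP2R1 and CYP4F11 are the called members with a matched promoter that holds a heat shock element pair, the inverted repeat that HSF1 is known to bind. The letters searched were GAANNTTC and TTCNNGAA, each of which reads the same on both strands, in the 250 bases before and 50 after each RefSeq start (GRCh38.p14), and the pair found is in capitals. The other promoter shown is that of CYP4F11, whose gene was lower.
CYP2R1 promoter, chr11:14892394-14892693, minus strand: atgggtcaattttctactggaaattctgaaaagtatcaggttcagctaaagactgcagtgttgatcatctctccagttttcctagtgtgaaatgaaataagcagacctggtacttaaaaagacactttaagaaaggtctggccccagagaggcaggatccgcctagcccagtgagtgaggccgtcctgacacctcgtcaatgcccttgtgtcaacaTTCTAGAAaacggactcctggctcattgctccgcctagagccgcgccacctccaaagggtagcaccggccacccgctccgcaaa
CYP4F11 promoter, chr19:15934818-15935117, minus strand: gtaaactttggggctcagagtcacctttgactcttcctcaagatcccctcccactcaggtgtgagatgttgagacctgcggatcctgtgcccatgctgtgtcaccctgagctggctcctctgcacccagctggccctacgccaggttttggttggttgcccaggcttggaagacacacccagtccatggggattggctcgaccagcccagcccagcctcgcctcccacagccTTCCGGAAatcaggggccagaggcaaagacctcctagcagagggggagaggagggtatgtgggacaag

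Counted in bases from the start, the pair begins at -34 in CYP2R1 and at -18 in CYP4F11. The CYP2R1 window shown lies wholly before the counted gene, which begins at 14892252 on the minus strand. From a listed start inside the counted gene (window 14892182 to 14892481), the same pair lies at -246. A CYP2R1 start further downstream (window 14891622 to 14891921) and another listed start of CYP4F11 held no pair. Outside chromosome 8, RefSeq promoters matched 19 tested members with 25 starts. A pair was found at 6 starts of 5 members (CYP1A1, CYP1B1-AS1, CYP2R1, CYP4F11 and CYP4X1). Of all 35116 promoters, from which no chromosome was left out, 13.5% held either pair. CYP1A1, CYP1B1-AS1 and CYP4X1 were not called. A match describes the letters in the window and nothing about binding.

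The P450 genes grouped here under retinoids, CYP26B1 and CYP27C1, moved in opposite directions. CYP2S1, which also oxidizes retinoids and was lower, is given with the fatty acid genes. CYP26B1 (chromosome 2, 72129238 to 72148038), which breaks down retinoic acid, had 1.87 and 1.94 CPM in WT and 8.37 and 8.66 CPM in HSF1-pLVX libraries. The replicates lay close together and the log2 fold change was 2.16 ± 0.197 (SE, edgeR adjusted p = 2.59e-07). CYP27C1 (chromosome 2, 127184120 to 127220078), which desaturates retinol, had 5.59 and 7.21 CPM in WT and 2.03 and 2.27 CPM in HSF1-pLVX libraries, a log2 fold change of -1.58 ± 0.220 (SE, edgeR adjusted p = 1.93e-05). CYP26A1, the other main retinoic acid hydroxylase, stayed below the filter with 1, 2, 6 and 4 counts in WT replicates 1 and 2 and HSF1-pLVX replicates 1 and 2.

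Among 22 listed retinoic acid genes outside the P450 symbols, 17 were tested. Of these 6 were higher and 7 lower, against 32.7% and 33.2% of all tested genes. FABP5, a carrier of fatty acids and retinoic acid, rose by a log2 fold change of 2.01, and STRA6, the retinol transporter, by 1.89. TGM2, a transglutaminase that retinoic acid is known to induce, fell by 3.10 on the log2 scale. ALDH1A3, which makes retinoic acid from retinal, fell by 1.64, from 660.5 ± 4.71 CPM to 211.9 ± 18.3 CPM (n = 2 each, SD).

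P450 genes of cholesterol side chains, oxysterols and bile acids were weakly expressed and went both ways. CYP27A1, the mitochondrial sterol side-chain hydroxylase, held 13 and 18 counts in WT and 43 and 30 in HSF1-pLVX libraries, with a log2 fold change of 0.96 ± 0.325 (SE, edgeR adjusted p = 1.81e-02). CYP39A1, an oxysterol hydroxylase, held 24 and 33 counts in WT and 74 and 60 in HSF1-pLVX libraries, with a log2 fold change of 0.96 (edgeR adjusted p = 5.98e-03). CYP7B1, which hydroxylates oxysterols in the other branch of bile acid synthesis, held 24 and 21 counts in WT and 10 in each HSF1-pLVX library. Its log2 fold change was -1.42 (edgeR adjusted p = 3.72e-03), and it passed the filter through the WT libraries only. All 3 calls were lost with DESeq2, at adjusted p-values of 0.236, 0.0894 and 0.109. Each was also lost without at least 1 library: CYP27A1 had an edgeR adjusted p of 0.128 without WT replicate 1, 0.123 without HSF1-pLVX replicate 1 and 0.0740 without HSF1-pLVX replicate 2, CYP39A1 one of 0.0665 without HSF1-pLVX replicate 2, and CYP7B1 one of 0.0599 without HSF1-pLVX replicate 1. CYP7A1 and CYP8B1, liver enzymes of bile acid synthesis, had 1 and 10 counts over all 4 libraries.

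Among 12 listed xenobiotic, bile acid and oxysterol receptors and enzymes, 7 were tested. Of these 2 were higher and 3 lower, against 32.7% and 33.2% of all tested genes. NR1H3, a nuclear receptor for oxysterols, rose by a log2 fold change of 1.69, and ABCG1, a cholesterol exporter that it is known to induce, by 0.41. The ABCG1 call was lost with DESeq2 (adjusted p = 0.0750) and without HSF1-pLVX replicate 2 or WT replicate 2 (edgeR adjusted p = 0.219 and 0.130). HSD3B7, an early enzyme of bile acid synthesis, fell by 2.002 and the fatty acid receptor PPARA by 0.73 on the log2 scale. The processed pseudogenes of CYP51A1 were near the edge of a call. CYP51A1P1 held 32 and 36 counts in WT and 23 and 26 in HSF1-pLVX libraries, with a log2 fold change of -0.73 (edgeR adjusted p = 4.95e-02). It was lost without any 1 of the 4 libraries (largest edgeR adjusted p = 0.333, without HSF1-pLVX replicate 1), with DESeq2 (adjusted p = 0.308), with a replicate block (edgeR adjusted p = 5.66e-02), with library size as the only normalization (0.0752) and without a filter on low counts (0.0555). CYP51A1P2 was not called, at a log2 fold change of -0.40. Of their read windows 9% and 13% recurred elsewhere in the genome.

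The P450 genes of fatty acids outside CYP4F were lower wherever they were called. Over all tested genes, 33.2% were lower. The substrate groups were set by hand and cut across families. Of 6 tested CYP2 members 1 was higher and 3 were lower, and of 12 tested CYP4 members 6 were higher and 2 lower. CYP4B1 (ENSG00000142973.13, chromosome 1, 46757838 to 46819413), which hydroxylates fatty acids and some toxins, had 1063 and 1062 counts in WT and 187 and 128 in HSF1-pLVX libraries. Its log2 fold change was -3.03 ± 0.108 (SE), or 8.14-fold lower (edgeR adjusted p = 2.45e-11). CYP2J2 (chromosome 1, 59893308 to 59926790), an epoxygenase of arachidonic acid, had 100 and 105 counts in WT and 15 and 4 in HSF1-pLVX libraries. Its log2 fold change was -3.69 ± 0.341 (SE), or 12.9-fold lower (edgeR adjusted p = 2.99e-07). The HSF1-pLVX libraries of CYP2J2 were far apart, and the log2 fold change was -4.72 without replicate 1 and -3.18 without replicate 2 of that variant.

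CYP2S1, an epithelial P450 that oxidizes eicosanoids and retinoids, had 5.86 and 5.01 CPM in WT and 2.11 and 1.96 CPM in HSF1-pLVX libraries, a log2 fold change of -1.41 ± 0.219 (SE, edgeR adjusted p = 5.47e-05). CYP2U1, a hydroxylase of long-chain fatty acids, had 17.37 and 16.95 CPM in WT and 9.68 and 9.26 CPM in HSF1-pLVX libraries, a log2 fold change of -0.86 ± 0.119 (SE, edgeR adjusted p = 1.96e-05). An antisense gene overlaps part of CYP2U1, and 8.6% of its exonic bases are shared with other genes. CYP4X1, an enzyme with few known substrates, had 4.79, 5.54, 4.30 and 4.13 CPM in the WT and HSF1-pLVX libraries and was not called (log2 fold change -0.29). CYP4V2, a fatty acid hydroxylase, had 6.07 and 7.10 CPM in WT and 6.29 and 7.60 CPM in HSF1-pLVX libraries, and its groups overlapped (log2 fold change 0.07). The pseudogene CYP2T1P and the antisense RNA CYP4A22-AS1 were not called either, at 0.01 and 0.31.

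Of 16 listed genes of eicosanoid and fatty acid oxidation outside the P450 symbols, 10 were tested. Of these 6 were higher and 2 lower, against 32.7% and 33.2% of all tested genes. PTGS1, the constitutive cyclooxygenase, rose by a log2 fold change of 3.11 and ALOX15B, a lipoxygenase, by 1.81. PTGS2, the inducible cyclooxygenase, fell by 2.26 on the log2 scale, from 323.8 ± 27.5 CPM to 67.2 ± 20.7 CPM (n = 2 each, SD). PLA2G4A, the phospholipase that releases arachidonic acid, fell from 3.96 ± 0.577 CPM to 1.81 ± 0.141 CPM (n = 2 each, SD).

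In the CYP4F subfamily, 8 of 24 members were tested, of which 6 were higher and 1 was lower. Over all tested genes, 32.7% were higher and 33.2% lower. The higher members CYP4F2 and CYP4F29P passed the filter through the HSF1-pLVX libraries only. The highest of the 8 in WT cells was CYP4F11, a hydroxylase of fatty acids and vitamin K. CYP4F11 held 488 and 430 counts in WT and 400 and 288 in HSF1-pLVX libraries. The latter were 15.9 and 14.5 CPM, against 23.1 CPM in the lower WT library. The CYP4F11 log2 fold change was -0.69 ± 0.111 (SE, edgeR adjusted p = 7.60e-05). CYP4F3, which inactivates leukotrienes by omega-hydroxylation, had 5.01 and 4.41 CPM in WT and 11.1 and 9.97 CPM in HSF1-pLVX libraries, a log2 fold change of 1.16 ± 0.158 (SE, edgeR adjusted p = 1.53e-05). CYP4F12, another fatty acid hydroxylase, held 24 and 11 counts in WT and 56 and 53 in HSF1-pLVX libraries, with a log2 fold change of 1.37 (edgeR adjusted p = 2.60e-03). Its log2 fold change was 2.05 without WT replicate 1, and the call was lost without HSF1-pLVX replicate 2 (edgeR adjusted p = 0.104).

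CYP4F2, which hydroxylates vitamin K and vitamin E, held 2 and 1 counts in WT and 22 and 20 in HSF1-pLVX libraries, a ratio of 11.6 with a 95% exact interval of 3.72 to 58.6 for counting error (edgeR adjusted p = 9.79e-05). Its groups were far apart at low depth. CYP4F2 passed the filter through the HSF1-pLVX libraries only, and so could hardly have been tested without differing. The pseudogene CYP4F23P, in the same cluster on chromosome 19, held 13 and 17 counts in WT and 14 and 8 in HSF1-pLVX libraries and was not called (log2 fold change -0.71, edgeR adjusted p = 0.133). Counts summed over the CYP4F members on chromosome 19 gave 33.1 and 29.2 CPM in WT and 30.9 and 28.6 CPM in HSF1-pLVX libraries, and the groups of this sum overlapped.

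**Figure D3:**
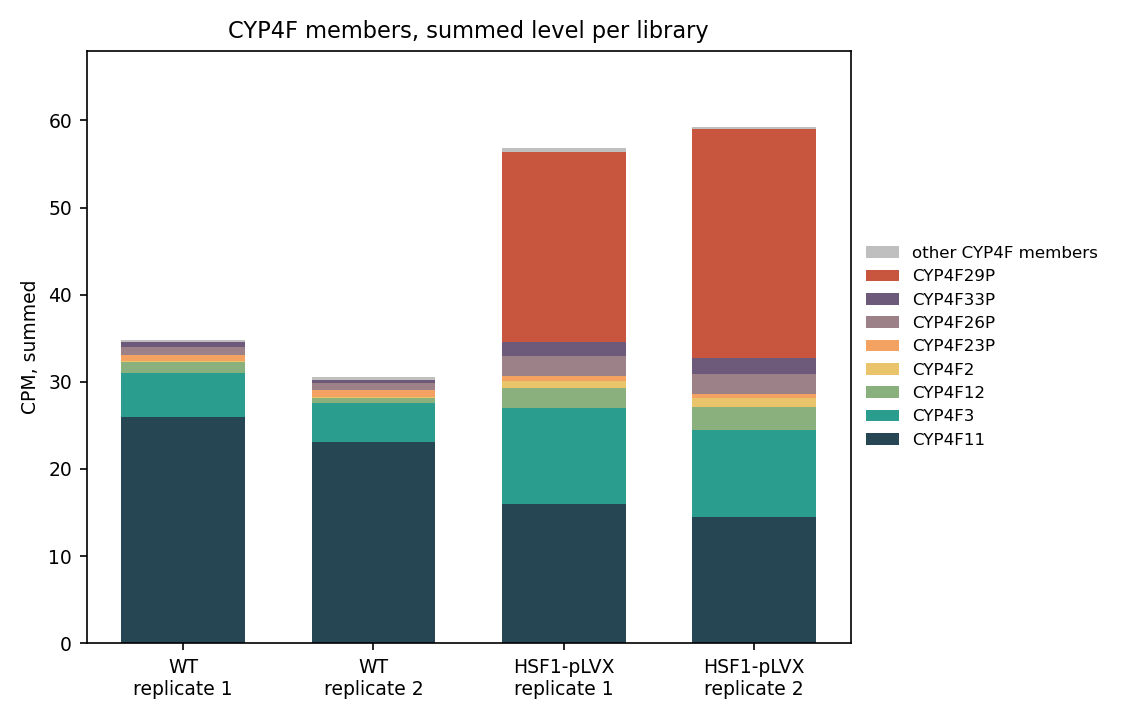
Summed level of the CYP4F members in each library, in CPM, stacked by gene from the enzyme CYP4F11 at the bottom to the pseudogene CYP4F29P near the top, with all untested members in grey. The stacks reach 34.8 and 30.6 CPM in WT and 56.9 and 59.3 CPM in HSF1-pLVX libraries, and without CYP4F29P they reach 34.8, 30.6, 35.1 and 33.0 CPM.

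CYP4F29P (ENSG00000228314.1, chromosome 21, 13843133 to 13848364), a transcribed pseudogene, had the largest difference of all members. It held 0 counts in both WT libraries and 546 and 522 counts in the HSF1-pLVX libraries. This was at least 149-fold higher against a floor of 3 counts per WT library (edgeR adjusted p = 7.64e-11). CYP4F29P passed the filter through the HSF1-pLVX libraries only, and so could hardly have been tested without differing. Of its closest copies, CYP4F34P on chromosome 13 had 0 counts in every library and CYP4F35P on chromosome 18 had 5, 5, 4 and 0 counts. Per kilobase of exon, CYP4F29P reached 14.0 CPM in HSF1-pLVX cells, the highest of the 32 tested members there.

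The 4 tested genes beside CYP4F29P showed the same pattern of counts. Within 500 kb the table lists 40 other genes, of which 28 had 0 counts in every library and 4 were tested, all higher in HSF1-pLVX cells. Over all tested genes, 32.7% were higher. The remaining genes had counts but stayed below the filter. ANKRD20A11P, an ankyrin repeat pseudogene 61.2 kb away, held 6 and 5 counts in WT and 382 and 326 in HSF1-pLVX libraries, a log2 fold change of 5.72 ± 0.239 (SE, edgeR adjusted p = 9.88e-11). SNX18P13 held 1 count in each WT library and 37 and 27 in HSF1-pLVX libraries, RHOT1P2 held 2 and 1 against 42 and 34, and ENSG00000224905 held 1 and 0 against 15 and 12. All 4 passed the filter through the HSF1-pLVX libraries only, and so could hardly have been tested without differing.

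**Figure D4:**
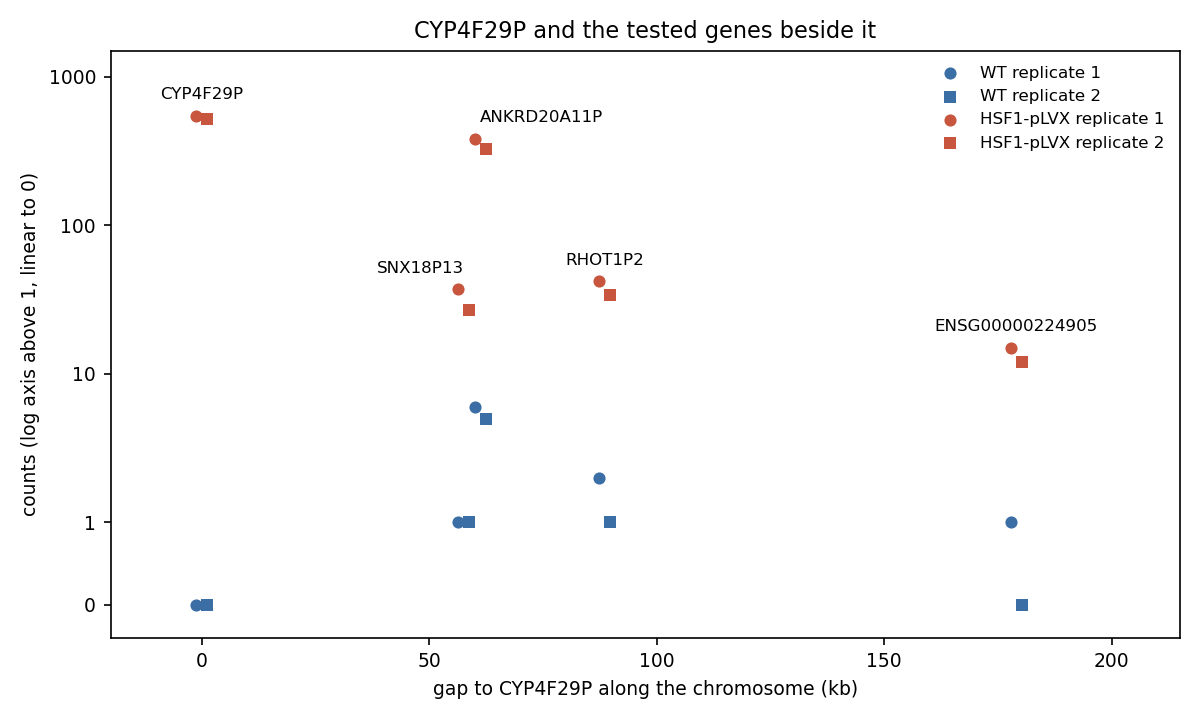
Counts per library of CYP4F29P and the 4 tested genes within 500 kb of it, against the gap between genes in kb; the count axis is logarithmic above 1 and linear down to 0, with blue for WT and red for HSF1-pLVX. In all 5 genes the HSF1-pLVX libraries lie at 12 counts or more and the WT libraries at 6 or fewer.

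The other called CYP4F pseudogenes lie on chromosome 9. CYP4F26P (33580695 to 33605293) held 16 and 13 counts in WT and 56 and 47 in HSF1-pLVX libraries, with a log2 fold change of 1.56 ± 0.305 (SE, edgeR adjusted p = 4.29e-04). CYP4F33P (38540567 to 38545372) held 11 and 7 counts in WT and 42 and 37 in HSF1-pLVX libraries, with a log2 fold change of 1.86 ± 0.358 (SE, edgeR adjusted p = 3.74e-04). Of the exonic bases of CYP4F33P, 62.4% are shared with other annotated genes, so its counts are uncertain. Both have relatives of the genes beside CYP4F29P next to them, a neighbourhood examined after the values were seen. Within 100 kb of CYP4F26P, 5 genes were tested, 2 were higher and 1 was lower, against 32.7% and 33.2% of all tested genes. ANKRD18B held 112 and 99 counts in WT and 365 and 254 in HSF1-pLVX libraries. The lower gene, ANXA2P2, held 4355 and 4086 counts in WT and 2477 and 1732 in HSF1-pLVX libraries (log2 fold change -1.28). Within 100 kb of CYP4F33P, 3 genes were tested and 2 were higher, and ANKRD18A held 37 and 53 counts in WT and 173 and 97 in HSF1-pLVX libraries. The other higher gene at each place, SNX18P7 and SNX18P3, lost its call with DESeq2 (adjusted p = 0.244 and 0.251), SNX18P7 without any 1 of the 4 libraries (edgeR adjusted p up to 0.0818) and SNX18P3 without either HSF1-pLVX replicate or WT replicate 2 (edgeR adjusted p up to 0.114).

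The P450 genes best known as targets of the aryl hydrocarbon receptor differed little. CYP1A1, the classic target, held 73 and 81 counts in WT and 134 and 75 in HSF1-pLVX libraries, and its groups overlapped in CPM, with a log2 fold change of 0.16 ± 0.217 (SE, edgeR adjusted p = 0.546). CYP1B1, which oxidizes estrogens and polycyclic hydrocarbons, had 22.6 and 18.8 CPM in WT and 25.7 and 24.5 CPM in HSF1-pLVX libraries, with a log2 fold change of 0.28 ± 0.110 (SE, edgeR adjusted p = 3.74e-02). The CYP1B1 call was lost with DESeq2 (adjusted p = 0.262), without a filter on low counts (edgeR adjusted p = 0.0545), and without WT replicate 2 (0.373), HSF1-pLVX replicate 1 (0.154) or HSF1-pLVX replicate 2 (0.160). Its antisense RNA CYP1B1-AS1 was not called (log2 fold change -0.30), and 13% of the exonic bases of CYP1B1 are shared with genes around it. AHR, the receptor itself, had 28.9 ± 0.815 CPM in WT and 28.2 ± 0.593 CPM in HSF1-pLVX cells (n = 2 each, SD) and was not called.

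Of 8 listed genes of that receptor's pathway, all were tested, 2 were higher and 3 lower, against 32.7% and 33.2% of all tested genes. ALDH3A1, an aldehyde dehydrogenase, rose by a log2 fold change of 0.98. NQO1, a quinone reductase, fell by 0.58 and TIPARP, which restrains the receptor, by 0.38 on the log2 scale, the latter call lost without HSF1-pLVX replicate 2 (edgeR adjusted p = 0.0514). The remaining tested members were not called. CYP20A1, an enzyme without a settled substrate, had 10.6 and 13.5 CPM in WT and 12.8 and 14.1 CPM in HSF1-pLVX libraries (log2 fold change 0.16). CYP2E1, which oxidizes ethanol, had a log2 fold change of 0.43, and 25.4% of its exonic bases are shared with antisense genes. CYP3A5, a drug-metabolizing enzyme, had one of 0.99 (edgeR adjusted p = 6.80e-02).

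Most enzymes that make steroid hormones or clear drugs in the liver were at or near 0. CYP11B1, CYP11B2, CYP19A1 and CYP21A2, of adrenal and gonadal steroid synthesis, had 0 counts in every library, which allows up to 3 counts in each. CYP11A1 had 4 and CYP17A1 3 counts over all 4 libraries, and the adrenal and gonadal markers NR5A1, MC2R, FSHR and LHCGR were at 0. Of the drug-metabolizing genes, CYP2C19 was at 0, CYP3A4 and CYP2B6 had 1 count each, CYP1A2 had 2 and CYP2D6 had 8. CYP4Z1, known for its restriction to breast tissue, had 2 and 7 counts in WT and 4 and 5 in HSF1-pLVX libraries, and its pseudogene CYP4Z2P had 10 and 8 against 4 and 4. Of the read windows, 50.9% recurred elsewhere in the genome for CYP21A2, 44.3% for CYP2D6, 18.2% for CYP4Z1 and 27.8% for CYP4Z2P. The low counts of these genes are uncertain for that reason.

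The untested members with 10 or more counts in all were 11, and none exceeded 10 counts in a library. Besides those already given they were CYP2A6 (4, 1, 5 and 3 counts, in the order WT replicates 1 and 2 and HSF1-pLVX replicates 1 and 2), CYP2B7P (8, 3, 5 and 4), CYP2F2P (10, 5, 9 and 4), CYP2U1-AS1 (0, 7, 3 and 4), CYP3A7 (1, 0, 5 and 6) and CYP51A1P3 (2, 3, 5 and 0). For CYP3A7 the ratio of HSF1-pLVX to WT was 9.14, with a 95% exact interval of 1.33 to 393 for counting error between these libraries. For CYP26A1 it was 2.77, with an interval of 0.713 to 15.7. Of the exonic bases of CYP3A7, 42.7% are shared with the readthrough symbol CYP3A7-CYP3A51P, so the counts of CYP3A7 are uncertain. The other 29 untested members with counts had 1 to 9 over all libraries.

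Among 25 listed genes of steroid hormone synthesis and inactivation outside the P450 symbols, 19 were tested. Of these 8 were higher and 3 lower, against 32.7% and 33.2% of all tested genes. SULT1E1, which sulfates estrogens, rose by a log2 fold change of 5.30, from 0.401 ± 0.111 CPM to 16.1 ± 2.19 CPM (n = 2 each, SD). HSD11B2, which inactivates glucocorticoids, rose by 1.73. SULT2B1, which sulfates cholesterol, fell by 3.19, and the aldo-keto reductase AKR1C2 fell by 0.52 on the log2 scale. Without HSF1-pLVX replicate 1 SULT2B1 fell by 3.84, and without HSF1-pLVX replicate 2 the AKR1C2 call was lost (edgeR adjusted p = 0.131).

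The partners that P450 enzymes need went both ways. Of 22 listed genes of electron transfer and heme, 20 were tested. Of these 6 were higher and 9 lower, against 32.7% and 33.2% of all tested genes. POR, which serves the enzymes of the endoplasmic reticulum, had 51.1 ± 6.75 CPM in WT and 50.4 ± 1.19 CPM in HSF1-pLVX cells (n = 2 each, SD) and was not called. The mitochondrial carriers FDX1 and FDXR rose by log2 fold changes of 1.06 and 0.88, and CPOX, an enzyme of heme synthesis, by 0.89. HMOX1, which breaks heme down, fell by 3.12 and CYB5R1, a cytochrome reductase, by 1.84 on the log2 scale. Without HSF1-pLVX replicate 1 HMOX1 fell by 3.75.

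Levels were compared between genes per kilobase of exon. In WT cells CYP4B1 led with 16.4 CPM per kilobase, before CYP4F11 with 6.10, CYP20A1 with 3.91, CYP1B1 with 3.44, CYP2U1 with 2.82 and CYP2R1 with 2.72. In HSF1-pLVX cells the order was CYP4F29P with 14.0, CYP2R1 with 6.37, CYP27B1 with 5.04, CYP20A1 with 4.37, CYP1B1 with 4.17 and CYP4F11 with 3.78. CYP4B1 came to 2.004 there, the eighth of the 32 tested members.

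Markers of other cell types were checked beside these results. Of the 6 hepatocyte markers 1 was tested, SERPINA1, which rose by a log2 fold change of 1.37, while APOA2, FGB and TTR were at 0, and the list summed to 20.5 to 21.9 CPM in WT and 53.8 to 55.9 in HSF1-pLVX libraries. The 6 fibroblast markers summed to 7.46 to 10.6 CPM in WT and 13.9 to 14.9 in HSF1-pLVX libraries, with DCN higher and COL1A1 not called. The 4 endothelial markers summed to 1.94 to 3.04 CPM in WT and 13.1 to 14.3 in HSF1-pLVX libraries, most of it KDR. The 5 leukocyte markers summed to 0.08 to 0.54 CPM, with PTPRC at 0. Their part in the P450 results was not tested.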

How the data were processed

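Per the file headers and the methods, the deposited values are raw counts per gene: the authors aligned paired-end reads of 76 bases to hg38 with HISAT2 2.0.5, processed them with SAMtools 1.13 and counted them with featureCounts 1.6.5 on a GENCODE 26 gene model. Strand, overlap and multi-mapping settings are not given in the sources used here. Reads that fit several copies, or overlapping genes, may therefore be split or dropped. The authors deposited the summed exon length beside the counts, which is used for levels per kilobase. Their DESeq2-normalized table was not used.

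Symbols came from GENCODE 44, which named 57392 of 63856 identifiers. The main test was that of edgeR 4.0.16, run under R 4.3.3 (TMM normalization, filterByExpr defaults, quasi-likelihood test without a replicate block, Benjamini-Hochberg adjustment over 15830 genes). The filter asked for 0.508 CPM in 2 libraries. The test was tried on simulated counts first. With 2 libraries against 2, an exact permutation test of 1 gene cannot go below p = 0.33. Replicates differed by more than sampling noise, with a chi-square per degree of freedom of 6.62 for WT and 8.04 for HSF1-pLVX libraries.

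A group at 0 counts was given a floor of 3 counts per library, and a group of 1 to 3 counts a ratio with a 95% exact binomial interval; both cover counting error only. Every tested member is named, those with 50 or more counts in a library with their values. From each of 7 pathway lists the 2 called genes with the largest change in each direction and a mean above 50 counts are named (1 is not reported here), as are the tested genes within 500 kb of the member with the largest fold. POR, FDXR, AHR and the markers named, and the genes beside the chromosome 9 pseudogenes, were named outside that rule after their values were seen. The members and lists were chosen with earlier results of these data known. Exact matches of 76-base exon windows were counted over the main chromosomes of hg38. The alternatives were DESeq2 1.42.0's Wald test and size factors, library size alone, no filter, the replicate block, a threshold of 0.01, each library left out in turn, summed CYP4F counts and a floor over the group.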

Additional observations from a re-analysis of the deposited data

How the results depend on the processing

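Over the alternatives with all 4 libraries, 152 of 161 values of single members kept their direction and side of the threshold, 9 lost their call and 0 reversed. DESeq2's Wald test lost 5 of them (CYP1B1, CYP27A1, CYP39A1, CYP51A1P1 and CYP7B1) and called 10 members higher and 6 lower. Over the whole transcriptome it called 3765 genes higher and 4449 lower, against 5175 and 5253. With each library left out in turn, 109 of 128 values kept direction and side, 14 lost their call and 5 reversed. The number of members called higher, 13, then lay between 8 and 12, lowest without HSF1-pLVX replicate 2. The number called lower, 8, lay between 6 and 7. Members at least 2-fold higher, 10, lay between 8 and 11 and those at least 2-fold lower, 5, between 4 and 5. Listed pathway genes called lower, 30, lay between 17 and 31, lowest without the same library, and those called higher, 31, between 25 and 33. All reversals were in members not called: CYP1A1 lay between -0.12 and 0.38, CYP2T1P between -0.53 and 0.92, and CYP4V2 between -0.055 and 0.21. The cause was not tested, beyond the fewer libraries.

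The replicate numbers were not shown to pair the samples, since same-numbered libraries did not deviate together (correlation -0.0147 over the tested genes). With the replicate block, 13 members were higher and 7 lower, with CYP51A1P1 lost, and edgeR then had 1 residual degree of freedom per gene in place of 2. Counts summed over the CYP4F members gave a log2 fold change of 0.83, against a median of 1.47 over the 8 tested. A floor of 3 counts over the group raised the bound of CYP4F29P from 149 to 296-fold. The HSF1 log2 fold change lay between 2.29 and 2.41 throughout. The 79 of 111 members that fell below the low-count filter have no edgeR result, and 39 of them had 0 counts in every library. Why their counts were low was not tested.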
